A study of Mus musculus with 6 samples.

Results

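The 10 genes described here, Ckm, Ckmt2, Ampd1, Slc25a4, Cox6a2, Cox7a1, Cox8b, Mb, Fabp3 and Ppargc1a, encode proteins that store and move energy and oxygen in muscle. They were picked by gene symbol, and each was 1 row among the 48440 genes of a table of raw read counts. Murine tissues were profiled by RNA sequencing around rabbit engineered cartilage implanted under the skin of BALB/c nude mice, 3 samples per group, after 12 weeks. The cartilage (BEC) was grown from bone marrow mesenchymal stem cells of New Zealand white rabbits in PLGA scaffolds and then wrapped in an electrospun membrane of PCL and collagen. In the 3%-Axitinib group the membrane carried axitinib, an inhibitor of the VEGF receptors, at 3% by weight, and in the 0%-Axitinib group the membrane carried none. The comparison shows how host tissue around BEC differs when the membrane releases the drug. Labels call the first group untreated, and it was taken as the 0%-Axitinib group because the protocols name only membranes with 0% and 3%. The hosts were male nude mice a few weeks old at purchase, which lack mature T cells. Constructs of one group shared a host in pairs, and which samples came from the same mouse is not given in the sources used here, so p-values measure the spread between these samples. All samples carried BEC and a membrane, so none shows skin without an implant.

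Muscle keeps a rapid energy reserve as phosphocreatine. Creatine kinase in the cytosol and in mitochondria passes phosphate between creatine and ATP, an exchanger in the inner mitochondrial membrane trades ADP for ATP, and AMP deaminase removes AMP during hard work. Myoglobin stores oxygen, fatty acid binding protein carries fuel to the mitochondria, and cytochrome c oxidase has subunit isoforms used mainly in heart and skeletal muscle. As background, Ckm, Mb, Cox6a2 and Ampd1 were taken as muscle-restricted, Ckmt2, Cox7a1, Cox8b, Fabp3 and Ppargc1a as muscle genes that brown fat or other tissues also use, and Slc25a4 as broadly expressed.

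Reads counted on genes numbered 17761968, 16716411 and 18005908 in 0%-Axitinib replicates 1, 2 and 3, and 9225518, 11686084 and 18403795 in 3%-Axitinib replicates 1, 2 and 3. Unmapped reads made up 5.47%, 3.84% and 14.9% of all reads in the 0%-Axitinib samples and 48.4%, 29.2% and 16.8% in the 3%-Axitinib samples. Depth on mouse genes was lowest in 3%-Axitinib replicate 1. The study collected the constructs together with the mouse tissue around them and aligned reads to the mouse genome alone. Whether rabbit RNA was among the unmapped or the counted reads was not tested. Levels are given as CPM, read counts scaled to the reads on genes after TMM normalization, and as RPKM, the CPM per kilobase of exon, where genes are compared. Values given in threes are those of replicates 1, 2 and 3. A count of 0 allows up to 3 reads, or 0.156 to 0.329 CPM depending on the sample. Intervals and this limit cover counting error only. A gene met the criterion of the study at a fold change of at least 1.5 with an unadjusted P of at most 0.05, here from edgeR's quasi-likelihood test, and adjusted p-values are Benjamini-Hochberg values over 15257 tested genes.

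Within the 3%-Axitinib group the libraries differed in muscle content, and replicate 2 stood apart from replicates 1 and 3. The 20 skeletal muscle fibre markers summed to 15781, 25 and 8938 CPM in 3%-Axitinib replicates 1, 2 and 3, and to 179, 24.5 and 42.5 CPM in 0%-Axitinib replicates 1, 2 and 3. Marker RNA was thus abundant in 3%-Axitinib replicates 1 and 3, and 3%-Axitinib replicate 2 lay with the lower 0%-Axitinib samples. The most abundant marker, the skeletal actin gene Acta1, measured 35, 0.291 and 0.0542 CPM without the drug and 3913, 0.0908 and 1846 CPM with it. Of 18 tested markers, 15 were higher by the criterion, 0 were lower and their median log2 fold change was 6.74, beside -0.03 over all tested genes. By limma-voom 0 of them met the criterion as higher. None separated the groups, since 3%-Axitinib replicate 2 exceeded the highest 0%-Axitinib sample for 0 of the 20 markers. Markers at 3 or fewer reads numbered 2, 5 and 6 in the 0%-Axitinib samples and 1, 9 and 1 in the 3%-Axitinib samples. Tnnc2 was at 2 reads or fewer in every sample, and 74% of its exonic bases are shared with Ube2c on the other strand. In bulk tissue, fewer cells of a type and less RNA per cell cannot be told apart. The part of muscle content in the results below was not tested.

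**Figure D1:**
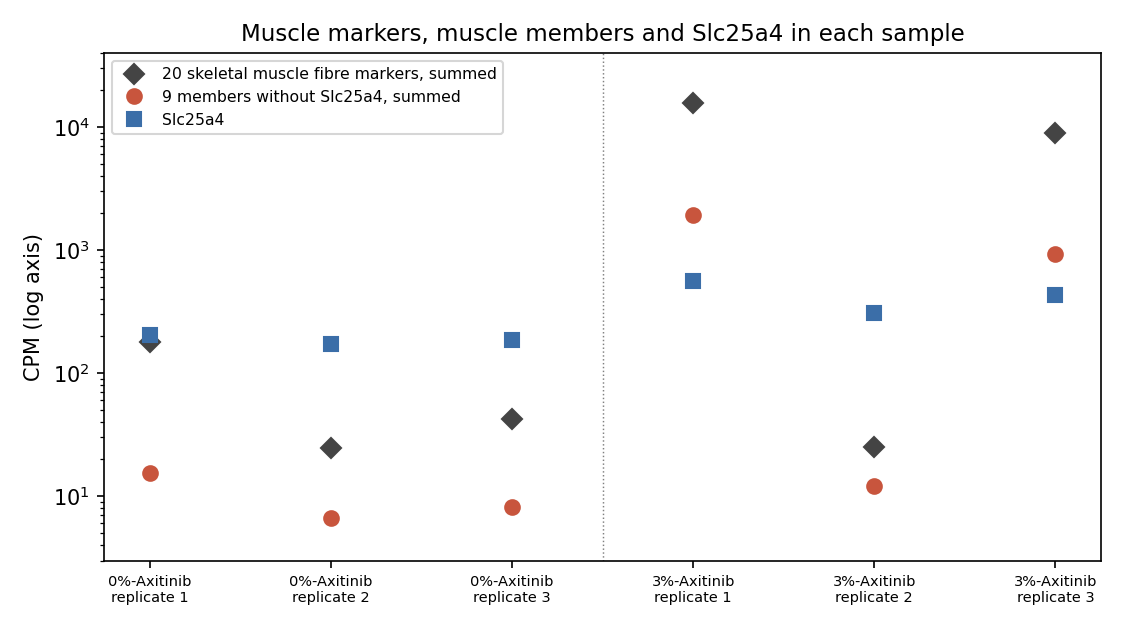
Summed CPM (log axis) of 20 skeletal muscle fibre markers and of 9 of the 10 genes without Slc25a4, and CPM of Slc25a4, in each sample. Markers and the 9 genes are high in 3%-Axitinib replicates 1 and 3 and low in 3%-Axitinib replicate 2, where Slc25a4 is at 309.6 CPM, above its highest 0%-Axitinib value of 206 CPM.

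All 10 genes had reads, and 7 passed the filter on low counts; Ckmt2, Ampd1 and Cox8b did not. Ckm, Mb, Slc25a4, Cox6a2, Cox7a1 and Fabp3 were higher in the 3%-Axitinib group by the criterion, beside 9.54% of all tested genes, and 0 were lower, beside 11.7%. With adjustment and a limit of 0.05, edgeR called 0 of the 7, beside 0.00655% of tested genes, which is the single gene Nr1d1, named after its value was seen. Before adjustment those 6 were at a P of at most 0.05. DESeq2's Wald test called 5 of the 7 after adjustment, beside 12.9% of tested genes, and limma-voom called 0, beside 0.0131%. By the criterion limma-voom called 3 as higher, Slc25a4, Cox7a1 and Fabp3, beside 9.62%. With any 1 sample left out edgeR called between 5 and 6 as higher, beside between 993 and 2212 of the 15257 tested genes. Without a filter on low counts, 9 of 10 met the criterion as higher, beside 6% of genes tested in that fit. Without 3%-Axitinib replicate 2, 1 of the 7 passed after adjustment by edgeR, beside 0.184% of tested genes. With the filter dropped as well, an alternative chosen after seeing the data, 7 of the 10 passed (all but Ckm, Slc25a4 and Ppargc1a), beside 0.805%. Slc25a4, Cox7a1 and Fabp3 had every 3%-Axitinib sample above every 0%-Axitinib sample, beside 14.7% of tested genes, and 0 had every one below, beside 16.6%. With at least 10 counts asked of every sample, 4 of the 10 were tested: Slc25a4, Cox6a2, Cox7a1 and Fabp3. All 4 met the criterion as higher, beside 1271 of the 13035 genes tested in that fit. The 10 genes were chosen with earlier results of these data known, so these counts support nothing about the 10 as a group.

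**Figure D2:**
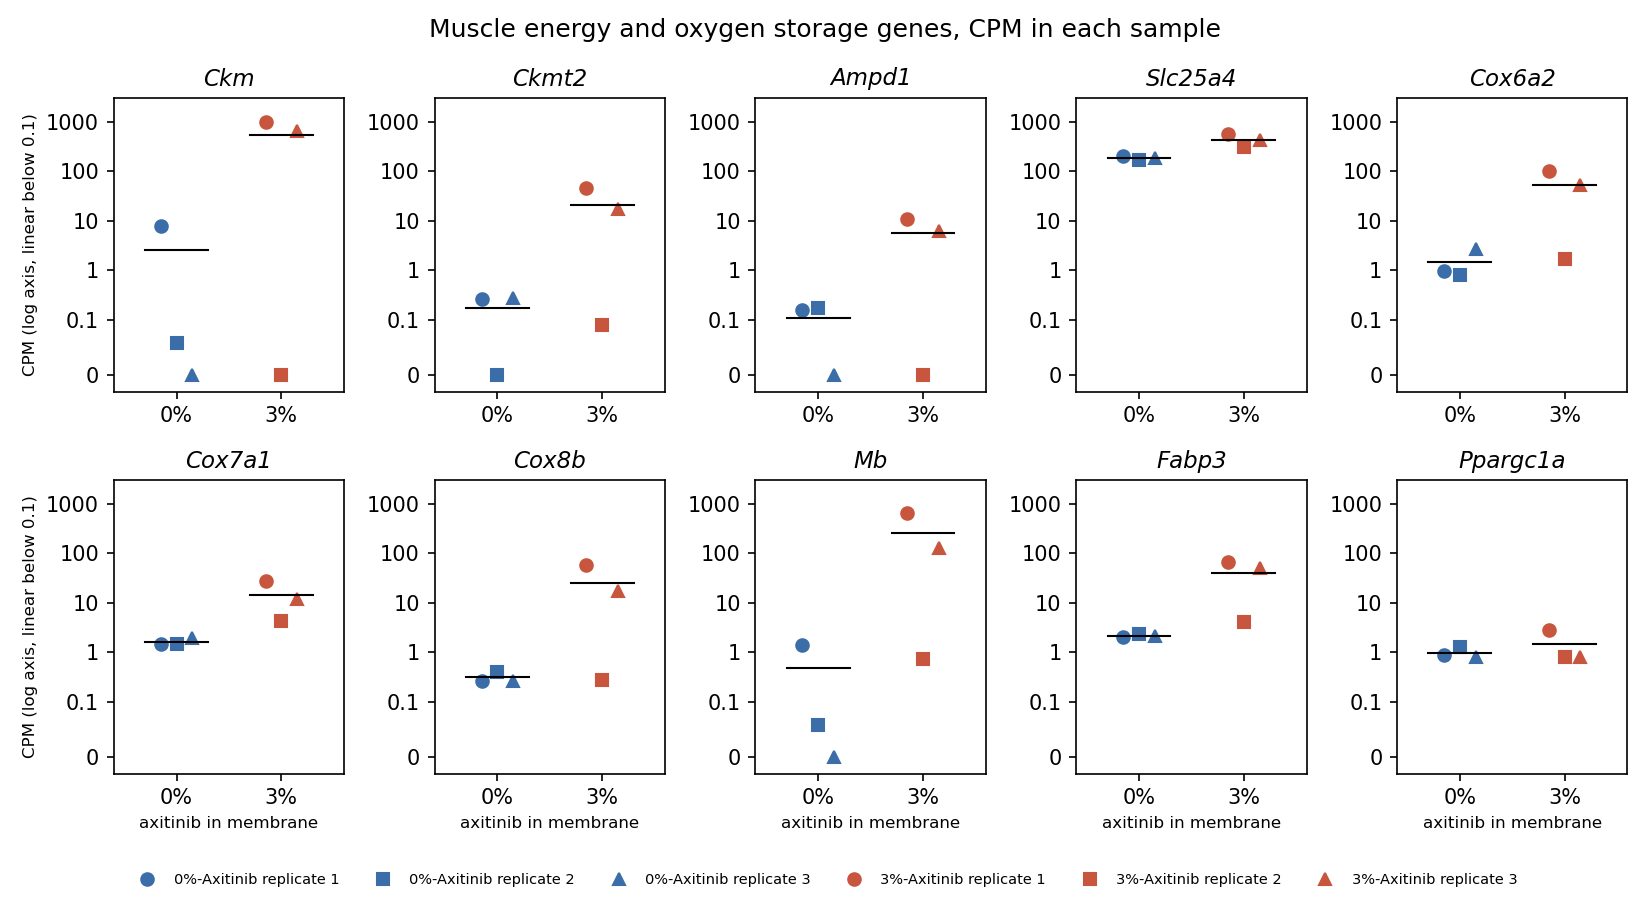
CPM of each gene in each sample (log axis, linear below 0.1); lines mark group means of 3 samples. Slc25a4, Cox7a1 and Fabp3 separate the groups, while for the other 7 genes 3%-Axitinib replicate 2 is no higher than the highest 0%-Axitinib sample.

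Ckm, the cytosolic creatine kinase of muscle (chromosome 7, 19404776 to 19422841 on GRCm38), was high in the samples rich in muscle markers. Its level was 7.81, 0.0581 and 0 CPM in 0%-Axitinib replicates 1, 2 and 3, and 989.8, 0 and 653 CPM in 3%-Axitinib replicates 1, 2 and 3. The groups overlapped, because 3%-Axitinib replicate 2 had 0 Ckm reads and 0%-Axitinib replicate 1 had 150. Means ± SD were 2.62 ± 4.49 CPM without the drug and 548 ± 503 CPM with it (n = 3 samples per group). By edgeR this was a log2 fold change of 7.69 (SE 2.91, adjusted p = 0.178), which met the criterion. The criterion was missed without 0%-Axitinib replicate 2 (7.13), 0%-Axitinib replicate 3 (7.11), 3%-Axitinib replicate 1 (6.93) or 3%-Axitinib replicate 3 (7.52), and the log2 fold change was 13.87 without 0%-Axitinib replicate 1. Ckb, the creatine kinase of brain and other tissues, measured 881, 1319.7 and 1032 CPM without the drug and 385, 566 and 917 CPM with it. Its edgeR log2 fold change of -0.79 (SE 0.39, adjusted p = 0.264) missed the criterion, which it met as lower without 3%-Axitinib replicate 3 (-1.18), with total counts, by DESeq2's Wald test and by limma-voom. Per length, the log2 ratio of Ckm to Ckb in RPKM was -6.82, -13.89 and -15.23 without the drug and 1.35, -13.61 and -0.50 with it. Only 3%-Axitinib replicate 1 held more Ckm than Ckb on that scale. Ckm had 0 reads in 0%-Axitinib replicate 3 and 3%-Axitinib replicate 2, so the ratios of these samples are set by the 0.5 added to counts.

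Ckmt2, the mitochondrial creatine kinase of striated muscle (chromosome 13, 91853387 to 91876885), was at 0.26, 0 and 0.271 CPM without the drug and 46.1, 0.0908 and 17.6 CPM with it, and did not pass the filter on low counts. Without that filter edgeR gave a log2 fold change of 6.80 (SE 1.6, adjusted p = 0.096). Leaving out 3%-Axitinib replicate 1 (5.58) or 3%-Axitinib replicate 2 (7.38) moved it by more than 1.5-fold, and by limma-voom (5.18) it missed the criterion. Without 3%-Axitinib replicate 2 its adjusted p was 0.0041, the lowest over its alternatives, and the highest was 0.432. Ckmt1, its ubiquitous counterpart, was low throughout, at 0.364, 7.27 and 2.6 CPM and 0.877, 2.09 and 0.693 CPM. Ampd1, the AMP deaminase of muscle (chromosome 3, 103074014 to 103099720), measured 0.156, 0.174 and 0 CPM without the drug and 10.9, 0 and 6.18 CPM with it. It failed the filter as well, and without the filter its edgeR fit gave a log2 fold change of 5.56 (SE 1.55, adjusted p = 0.127). It was 3.91 by limma-voom, which missed the criterion, and moved by more than 1.5-fold without 3%-Axitinib replicate 1 (4.73) or 3%-Axitinib replicate 2 (6.15). Both genes were, like Ckm, high in 3%-Axitinib replicates 1 and 3 and at 0 or 1 read in 3%-Axitinib replicate 2. The broadly used deaminases missed the criterion: Ampd2 had a log2 fold change of 0.09 and Ampd3 one of 0.07, and these signs flip to -0.04 and -0.05 with scaling by total counts.

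Slc25a4, the heart and muscle form of the ADP/ATP exchanger, which most tissues also make (chromosome 8, 46206797 to 46211284), had many reads in every sample. It measured 206, 171 and 185 CPM in 0%-Axitinib replicates 1, 2 and 3, and 565, 309.6 and 429 CPM in 3%-Axitinib replicates 1, 2 and 3. Even 3%-Axitinib replicate 2, with 0 Ckm reads, lay above the highest 0%-Axitinib sample, and their 95% counting intervals of 299 to 320.2 and 199.6 to 213 CPM were apart. The edgeR fit gave a log2 fold change of 1.21 (SE 0.28, adjusted p = 0.0973) and met the criterion. Slc25a4 also met it under each of the 14 alternatives in which it was refitted. Its adjusted p ran from 0.00133 by DESeq2's Wald test to 0.27 without 3%-Axitinib replicate 1. Within the 3%-Axitinib group the order was replicate 1, then 3, then 2, the same order as the summed muscle markers. Slc25a5, the exchanger of dividing and non-muscle cells, measured 239, 271 and 252 CPM and 277, 369.9 and 300.1 CPM, also with the groups apart, but its log2 fold change of 0.31 (SE 0.22, adjusted p = 0.41) missed the criterion. The log2 ratio of Slc25a4 to Slc25a5 in RPKM was -0.73, -1.18 and -0.96 without the drug and 0.51, -0.77 and 0.00 with it. On this scale 3%-Axitinib replicate 2 lay within the 0%-Axitinib range, and the difference of the ratio between groups had an exact two-sided permutation p of 0.2, or 0.36 adjusted over 12 pairs.

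Around these 4 genes, 17 of 18 other genes of creatine and adenine nucleotide metabolism were tested. Of these, 2 were higher by the criterion, 1 was lower and 14 met it in neither direction, with a median log2 fold change of 0.09. Ak1, a cytosolic adenylate kinase, measured 56.7, 29.4 and 37.2 CPM without the drug and 92.9, 103 and 73.3 CPM with it, a log2 fold change of 1.13 (SE 0.28, adjusted p = 0.102) by edgeR. Unlike Ckm, its highest value was in 3%-Axitinib replicate 2. Adsl, which makes AMP from adenylosuccinate, was the other higher gene at 0.82, and Gatm, which begins creatine synthesis, was the lower one at -0.85. Gatm missed the criterion without 3%-Axitinib replicate 3 (-0.78), and without 0%-Axitinib replicate 1 the lower genes numbered 2.

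Cytochrome c oxidase, the last enzyme of the respiratory chain, was represented by 3 muscle isoforms. Cox6a2 (chromosome 7, 128205435 to 128206387) measured 0.989, 0.814 and 2.71 CPM in 0%-Axitinib replicates 1, 2 and 3, and 103, 1.73 and 52.7 CPM in 3%-Axitinib replicates 1, 2 and 3. Its 3%-Axitinib replicate 2 lay inside the 0%-Axitinib range, and the edgeR fit gave a log2 fold change of 5.11 (SE 1.33, adjusted p = 0.107) that met the criterion; without 0%-Axitinib replicate 3 (5.84) or 3%-Axitinib replicate 1 (4.18) it moved by more than 1.5-fold. Cox7a1 (chromosome 7, 30184144 to 30186078) measured 1.51, 1.51 and 1.95 CPM against 27.1, 4.27 and 12.1 CPM, and here all 3 treated samples were above all 3 others. In 3%-Axitinib replicate 2 the 47 Cox7a1 reads gave a 95% interval of 3.14 to 5.68 CPM, beside 1.37 to 2.7 CPM in the highest 0%-Axitinib sample. Its fit gave a log2 fold change of 3.12 (SE 0.67, adjusted p = 0.0972), and 2.31 without 3%-Axitinib replicate 1. Cox8b (chromosome 7, 140898945 to 140900446) held 5, 7 and 5 reads in the 0%-Axitinib samples and 531, 3 and 302 in the 3%-Axitinib samples, or 0.26, 0.407 and 0.271 CPM against 58.2, 0.273 and 17.4 CPM. It failed the filter, and without it edgeR gave a log2 fold change of 6.28 (SE 1.39, adjusted p = 0.0905), or 4.81 without 3%-Axitinib replicate 1. By limma-voom (4.36) it missed the criterion. Unlike Ckm, Cox6a2 and Cox7a1 had more than 3 reads in every sample.

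The common isoforms of the same subunits were more abundant in every sample. Per length, Cox6a1 measured 255, 253 and 514 RPKM in the 0%-Axitinib samples and 344, 511 and 475 RPKM in the 3%-Axitinib samples, where Cox6a2 measured 152, 2.54 and 77.4 RPKM. The muscle form supplied 30.6%, 0.494% and 14% of the summed Cox6a2 and Cox6a1 RPKM in the 3%-Axitinib samples, and at most 0.768% in the 0%-Axitinib samples. For Cox7a1 against Cox7a2 the log2 ratio in RPKM was -4.36, -4.43 and -4.78 without the drug and -0.83, -3.67 and -1.98 with it, with the groups apart and an exact permutation p of 0.1, the smallest that 3 against 3 samples can give. For Cox8b against Cox8a it was -8.23, -7.61 and -8.96 and -0.99, -9.03 and -3.23. All of these ratios were below 0, and those of 3%-Axitinib replicate 2 lay near or below the 0%-Axitinib values except for Cox7a1. Of 13 tested nuclear subunits outside the 10 genes, 0 were higher and 0 lower by the criterion in edgeR, with 12 of 13 log2 fold changes above 0 and a median of 0.34. That count rests on 1 library: without 0%-Axitinib replicate 3, where the common subunits peaked within their group, 12 were higher by the criterion; without 3%-Axitinib replicate 3 it was 1. Cox4i1, with the highest mean CPM of the list, measured 193, 211 and 435 CPM and 315, 312 and 373 CPM. The largest log2 fold change in this list, 1.24 for the lung isoform Cox4i2, was -0.04 without 3%-Axitinib replicate 2, and it met the criterion without 0%-Axitinib replicate 3 (2.13).

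Mb encodes myoglobin, the oxygen store of red muscle fibres (chromosome 15, 77015487 to 77050670). It measured 1.41, 0.0581 and 0 CPM in 0%-Axitinib replicates 1, 2 and 3, and 642, 0.727 and 128 CPM in 3%-Axitinib replicates 1, 2 and 3. High values were confined to 3%-Axitinib replicates 1 and 3, and the 8 reads of 3%-Axitinib replicate 2 lay within the 0%-Axitinib range. The edgeR log2 fold change of 8.99 (SE 2.44, adjusted p = 0.113) was the largest of the 7 fitted, met the criterion, and moved most when 0%-Axitinib replicate 1 (12.77) or 3%-Axitinib replicate 1 (6.98) was left out. Another globin, Cygb, found in fibroblasts, measured 195, 130.3 and 164 CPM and 321, 316 and 311 CPM, nearly equal in the 3%-Axitinib samples whatever their Mb level, with a log2 fold change of 0.95 (SE 0.23, adjusted p = 0.0989) that met the criterion. Annotated exons of other genes on the opposite strand, Gm49540 and Apol6, cover 31.9% of the exonic bases of Mb, and whether counting used strand is not given in the sources used here. Apol6 measured 5, 5.18 and 16 CPM and 5.7, 8.99 and 3.35 CPM, so it was not high where Mb was high. The share of exonic bases under genes on the other strand was 19.6% for Fabp3, 15.5% for Ckm, 10.3% for Cox6a2, 5.65% for Ckmt2 and 0% for the other 5 genes.

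Fabp3, the fatty acid binding protein of heart and muscle (chromosome 4, 130308595 to 130315463), measured 2.08, 2.33 and 2.11 CPM without the drug and 65.5, 4.09 and 50 CPM with it. The groups were apart, though 3%-Axitinib replicate 2 rested on 45 reads, with a 95% interval of 2.98 to 5.47 CPM that overlaps the 1.66 to 3.17 CPM of 0%-Axitinib replicate 2. Its edgeR fit gave a log2 fold change of 4.19 (SE 0.92, adjusted p = 0.0972) and met the criterion. Without 3%-Axitinib replicate 2 it was the 1 gene of the 7 fitted at an adjusted p of at most 0.05 (log2 fold change 4.73, adjusted p = 0.0192, edgeR). Over all alternatives its adjusted p ran from 1.4e-05 to 0.27. Fabp4, the form of fat cells, macrophages and endothelium, was lower: 545, 534 and 734 CPM against 245, 284 and 251 CPM, a log2 fold change of -1.22 (SE 0.25, adjusted p = 0.0965) that met the criterion. The log2 ratio of Fabp3 to Fabp4 in RPKM accordingly lay at -5.57, -5.38 and -5.97 and at 0.54, -3.66 and 0.12, groups apart, exact permutation p = 0.1 and 0.36 adjusted over 12 pairs. In 3%-Axitinib replicate 2 that ratio was below those of the other treated samples. Fabp5, of epidermis and macrophages, had a log2 fold change of 0.22, which was -0.05 without 0%-Axitinib replicate 3 and met the criterion without 0%-Axitinib replicate 2 (0.71).

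Among 23 tested genes of fatty acid uptake and oxidation, 2 were higher and 2 lower by the criterion, with a median log2 fold change of 0.21. Pdk4, the kinase that shuts off pyruvate oxidation when fat is burned, was high in 3%-Axitinib replicates 1 and 3, at 30.1, 29.1 and 9.86 CPM without the drug and 543, 10.8 and 217 CPM with it. Its edgeR log2 fold change of 3.48 (SE 1.2, adjusted p = 0.155) met the criterion, but not by limma-voom (2.39) or without 0%-Axitinib replicate 3 (3.12) or 3%-Axitinib replicate 1 (2.30). Eci1, a mitochondrial isomerase for unsaturated fatty acids, measured 20, 17.9 and 19 CPM without the drug and 49.8, 41.7 and 42.5 CPM with it, near equal in the treated samples, with a log2 fold change of 1.23 (SE 0.18, adjusted p = 0.0965). Cd36, a fatty acid transporter of fat cells, macrophages and endothelium, was lower, at -1.74, and Fabp4 was the other lower gene. Cd36 missed the criterion by limma-voom (-1.40) or without 0%-Axitinib replicate 1 (-1.88), 0%-Axitinib replicate 2 (-0.84), 3%-Axitinib replicate 1 (-1.64), 3%-Axitinib replicate 2 (-1.60) or 3%-Axitinib replicate 3 (-2.04), and without 0%-Axitinib replicate 3 the lower genes of this list numbered 4.

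**Figure D3:**
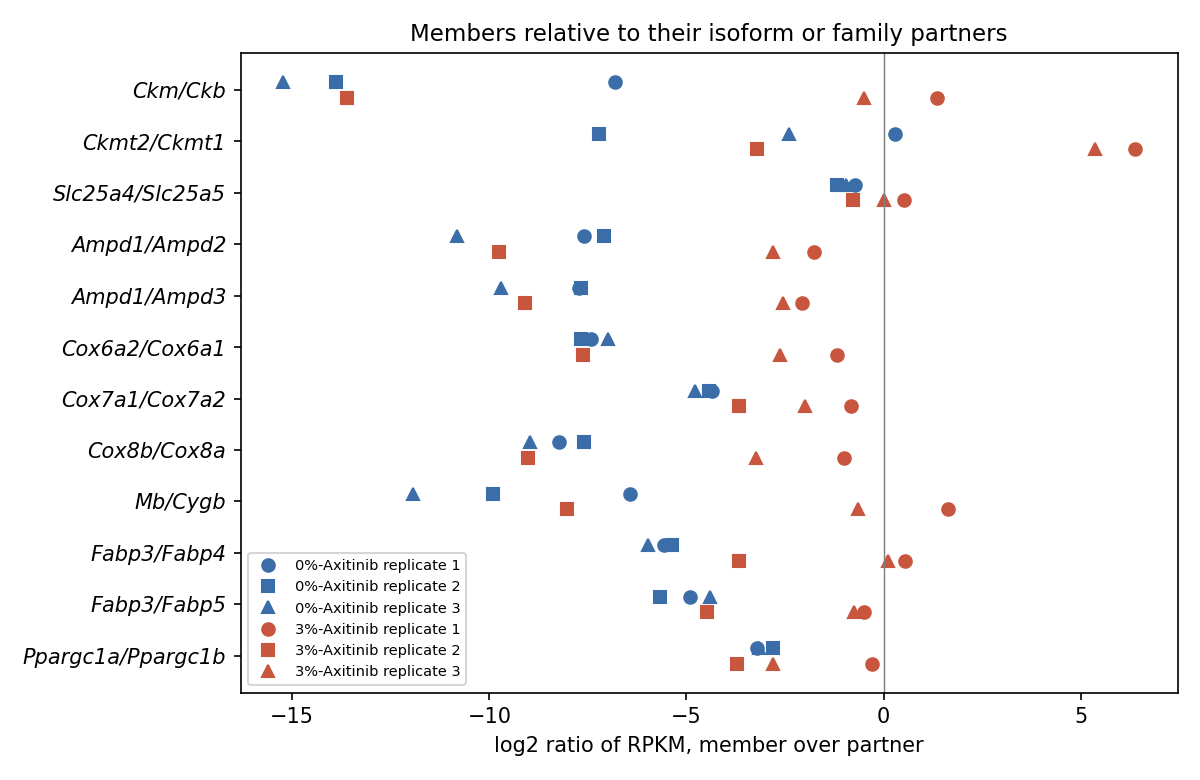
The log2 ratio of RPKM of each gene to its isoform or family partner in each sample, 3 samples per group. Values right of 0 mean more of the gene than of the partner per kilobase of annotated exon. 3%-Axitinib replicates 1 and 3 lie to the right in most pairs, and 3%-Axitinib replicate 2 lies within the range of the 0%-Axitinib samples except above it in Cox7a1/Cox7a2 and Fabp3/Fabp4 and below it in Cox8b/Cox8a and Ppargc1a/Ppargc1b.

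Over the 12 pairs, 10 had overlapping groups and 2 had every 3%-Axitinib ratio above every 0%-Axitinib ratio. Exact permutation p-values ran from 0.1 to 0.8 and the lowest adjusted value was 0.36, so no pair passed a limit of 0.05, which 3 against 3 samples cannot reach.

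Ppargc1a encodes PGC-1α, a coactivator of mitochondrial genes (chromosome 5, 51454250 to 51567726), and it did not share the pattern of the others. Its counts were 17, 22 and 15 reads in 0%-Axitinib replicates 1, 2 and 3, and 26, 9 and 14 reads in 3%-Axitinib replicates 1, 2 and 3. As CPM these were 0.885, 1.28 and 0.812 and 2.85, 0.818 and 0.808, highest in 3%-Axitinib replicate 1, whose counting interval (1.86 to 4.18 CPM) overlaps that of 0%-Axitinib replicate 2 (0.802 to 1.94 CPM), while 3%-Axitinib replicate 3, rich in Ckm, was no higher than the 0%-Axitinib samples. The edgeR fit gave a log2 fold change of 0.56 (SE 0.62, adjusted p = 0.607), which missed the criterion and was -0.28 without 3%-Axitinib replicate 1. Ppargc1b, its relative, measured 5.1, 5.47 and 4.55 CPM and 2.08, 6.81 and 3.52 CPM, a log2 fold change of -0.28 (SE 0.47, adjusted p = 0.742). Ppargc1a had between 9 and 26 reads per sample, and the part of depth in the missed criterion was not tested. Of 16 tested partners and regulators, 1 was higher and 2 were lower by the criterion, with a median log2 fold change of -0.11. The higher one was Ucp3, an uncoupling protein of muscle, at 1.93, 0.93 and 0.379 CPM and 27, 0.363 and 11.8 CPM, again high in 3%-Axitinib replicates 1 and 3. It missed the criterion by limma-voom (2.51) or without 0%-Axitinib replicate 2 (3.48), 0%-Axitinib replicate 3 (3.17), 3%-Axitinib replicate 1 (2.48) or 3%-Axitinib replicate 3 (3.63), and without 3%-Axitinib replicate 2 the higher genes numbered 2. The lower ones were the deacetylase Sirt1 at -0.95 and the AMP-activated kinase subunit Prkaa1 at -0.61. For both, all treated samples lay below all others, as they did for 16.6% of all tested genes. Prkaa1 missed the criterion without 0%-Axitinib replicate 2 (-0.54) or 3%-Axitinib replicate 3 (-0.50).

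Taken by sample, the 9 genes other than Slc25a4 summed to 15.4, 6.63 and 8.12 CPM in 0%-Axitinib replicates 1, 2 and 3, and to 1946, 12 and 938 CPM in 3%-Axitinib replicates 1, 2 and 3. As a share of reads on genes they made up 0.192% (95% Clopper-Pearson interval 0.19 to 0.195%) in 3%-Axitinib replicate 1 and 0.0882% (0.0869 to 0.0896%) in 3%-Axitinib replicate 3. In 3%-Axitinib replicate 2 the share was 0.00113%, inside the range of the 0%-Axitinib samples. The number of the 10 genes above their highest 0%-Axitinib value was 10 in 3%-Axitinib replicate 1, 9 in 3%-Axitinib replicate 3 and 3 in 3%-Axitinib replicate 2. Over all tested genes, 27.9%, 28% and 28.2% exceeded it in 3%-Axitinib replicates 1, 3 and 2. The 3 genes of 3%-Axitinib replicate 2 were Slc25a4, Cox7a1 and Fabp3, a count near that background share.

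Per length, the order of the genes changed with the sample. Slc25a4 led in every 0%-Axitinib sample, at 87.6, 72.8 and 78.5 RPKM, and in 3%-Axitinib replicate 2, at 132 RPKM, where the next gene, Cox7a1, stood at 7.98 RPKM. Mb led in 3%-Axitinib replicate 1 at 431 RPKM, before Ckm at 339.8 and Slc25a4 at 240.3 RPKM. That order depends on the length used, here all annotated exons joined, 2913 bases for Ckm and 1492 for Mb. A transcript can be shorter than its joined exons. In CPM Ckm was above Mb in that sample, at 989.8 against 642. Ckm led in 3%-Axitinib replicate 3 at 224 RPKM, and Mb followed Slc25a4 there at 85.7 RPKM.

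The 2 samples rich in muscle markers differed in composition. Per 100 Ckm reads, Mb had 64.9 (62.8 to 67.1) reads in 3%-Axitinib replicate 1 and 19.6 (18.7 to 20.5) in 3%-Axitinib replicate 3, with 95% Clopper-Pearson intervals in parentheses. Cox8b had 5.88 (5.38 to 6.42) against 2.67 (2.37 to 2.99), and Ckmt2 had 4.65 (4.21 to 5.13) against 2.69 (2.39 to 3.01). For Cox6a2 the values were 10.4 (9.73 to 11.1) and 8.06 (7.53 to 8.63). These 4 genes were lower relative to Ckm in 3%-Axitinib replicate 3, beyond counting error, and so was Cox7a1, at 2.74 (2.4 to 3.11) and 1.86 (1.61 to 2.13). Slc25a4 was higher there beyond counting error, at 57.1 (55.2 to 59.1) and 65.7 (63.8 to 67.7). In 3%-Axitinib replicate 2, with 0 Ckm reads, Slc25a4 was still at 309.6 CPM and Cox7a1 at 4.27 CPM. Their ratios to Ckm can thus include reads from tissue without Ckm, and this part was not tested. Intervals overlapped for Ampd1, at 1.1 (0.89 to 1.34) and 0.946 (0.775 to 1.14), and for Fabp3, at 6.61 (6.08 to 7.19) and 7.66 (7.14 to 8.2). Myosin genes of fibre types differed too: Myh1, of fast fibres, had 165 (160.4 to 169) against 75.7 (73.6 to 77.9). Myh2, of fast oxidative fibres, had 41.1 (39.5 to 42.7) against 9.06 (8.49 to 9.66), and Myh7, of slow fibres, 1.1 (0.89 to 1.34) against 0.203 (0.129 to 0.305). Myh4, of fast glycolytic fibres, had 210.4 (205 to 216) against 334 (327 to 341). Each value compares 2 libraries and not the conditions.

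**Figure D4:**
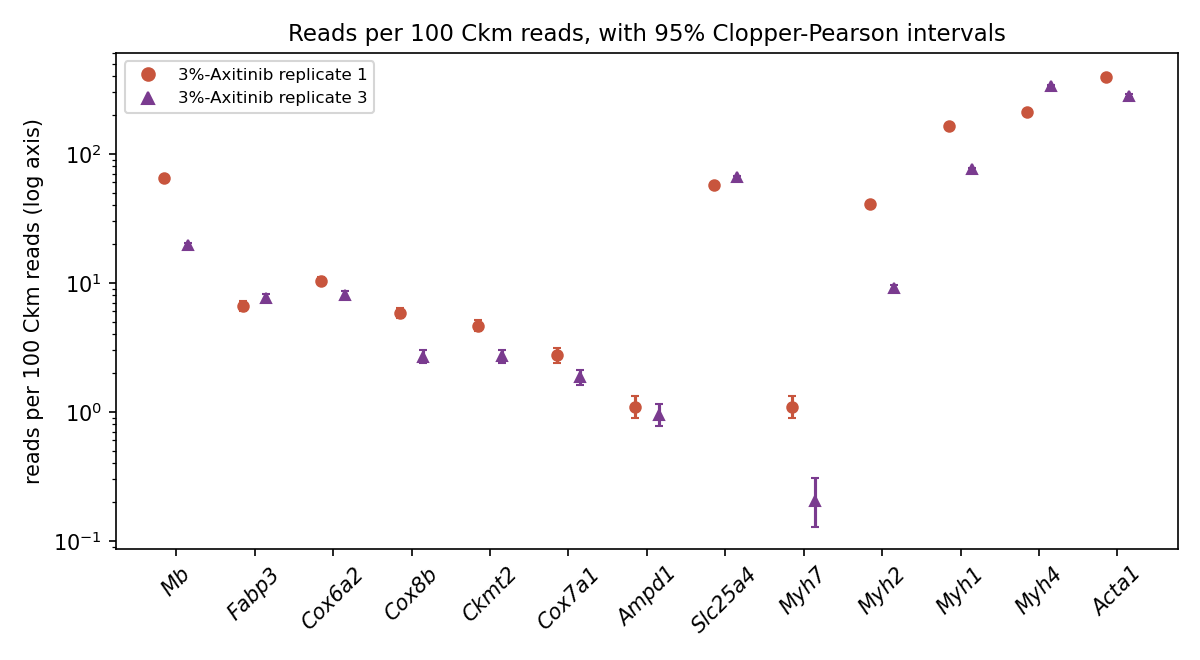
Reads per 100 Ckm reads (log axis) in the 2 treated samples with many Ckm reads; bars are 95% Clopper-Pearson intervals of counting error. Mb, Cox8b, Ckmt2, Myh1, Myh2 and Myh7 are lower in 3%-Axitinib replicate 3, Slc25a4 and Myh4 are higher, and the intervals of Ampd1 and Fabp3 overlap. Slc25a4 also has many reads in 3%-Axitinib replicate 2, where Ckm has 0.

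Genes most like Ckm across the 6 samples, by Pearson correlation of log2 CPM over 14332 genes, were Atp2a1 (r = 0.999), Acta1, Pvalb, Cacna1s and Apobec2 (r = 0.997). Atp2a1, the calcium pump of fast fibres, measured 21.2, 0.523 and 0.271 CPM without the drug and 1746, 0.545 and 1261 CPM with it. Art5 (r = 0.992), Cirh1a, Ddit4 and Gbas (r = 0.989) were among those most like Slc25a4, and Ddit4, a stress-induced inhibitor of mTOR signalling, measured 48.5, 42.6 and 47.1 CPM and 192, 75.1 and 149.6 CPM. Those most like Ppargc1a were Fam136a (r = 0.982), P2rx5, Hadhb, Etohi1 and B4galt1 (r = 0.949). Without the 2 samples farthest from the median of Ppargc1a, r was 0.221 for Fam136a, -0.0188 for Hadhb, 0.375 for P2rx5, 0.595 for B4galt1 and 0.849 for Etohi1, lower for all 5, so the likeness to Ppargc1a rests in large part on those samples, least for Etohi1. Without 3%-Axitinib replicates 1 and 3 the named genes had r from 0.983 (Apobec2) to 0.998 (Acta1) with Ckm, over 4 samples. Of those samples, 0%-Axitinib replicate 1 had 150 Ckm reads and the others 1 or 0. The r values with Ckm there thus rest on 0%-Axitinib replicate 1 alone. With Slc25a4 the named genes had r from 0.97 (Art5) to 0.998 (Gbas) over the same 4 samples. Among the 10 genes, Ckm and Slc25a4 had r = 0.815 (Spearman's rho 0.6), which was -0.124 without 3%-Axitinib replicates 1 and 3. For Slc25a4 and Cox7a1 r was 0.983 (rho 0.829) and 0.923 without the same 2 samples. These correlations describe 6 samples or fewer and carry no test.

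Other tissues that use some of these genes were checked by their markers. The 7 heart muscle markers summed to 8.33, 8.95 and 14.3 CPM and 35.9, 11.4 and 15.2 CPM, with Tnni3 the most abundant and Myl7 at 0 reads in all samples, and 2 of 4 tested, Myh6 and Tnnt2, were higher by the criterion. That count was 0 without 0%-Axitinib replicate 2 or 3%-Axitinib replicate 1, and 1 without 0%-Axitinib replicate 1 or 3%-Axitinib replicate 3. It was also 0 with total counts or with at least 10 counts asked of every sample, and 1 by DESeq2's Wald test, by limma-voom and without a filter. Heart markers at 3 or fewer reads numbered 3 in each sample. The 9 brown and beige adipocyte markers summed to 80.1, 122 and 48.8 CPM and 59.4, 43.5 and 68.5 CPM, with Dio2 the most abundant and 0 of 6 tested meeting the criterion in edgeR and 1 without 0%-Axitinib replicate 1 or 0%-Axitinib replicate 3. Ucp1, the defining gene of brown fat, had at most 2 reads in any sample, below the limit of 3 reads. It had 1 read in 3%-Axitinib replicate 1 and 1 in 3%-Axitinib replicate 3, where Cox8b, Cox7a1 and Ckmt2 were high. The part of brown fat in the levels of these genes was not tested. Cidea, another marker of the list with too few reads to be tested, had 0, 5 and 3 reads without the drug and 11, 0 and 21 with it, more in 3%-Axitinib replicates 1 and 3 than in the others. Elovl3, the remaining untested marker, went the other way, with 5, 11 and 2 reads without the drug and 0 in each sample with it. Both were named after their values were seen. White adipocyte markers, 7 genes led by Cfd, summed to 219, 178 and 230.1 CPM and 193, 26.2 and 67.4 CPM. Of these, 1 was lower by the criterion, Lep, and 6 were lower by limma-voom and without 3%-Axitinib replicate 1, whose sum lay within the 0%-Axitinib range. Smooth muscle markers, 6 genes led by Acta2, summed to 413, 132 and 265 CPM and 409, 413 and 215 CPM, and 0 of 6 met the criterion, or 1 without 0%-Axitinib replicate 1 or 0%-Axitinib replicate 3. The heart marker sum was highest in 3%-Axitinib replicate 1, mostly from Tnnt2, with 3%-Axitinib replicate 3 close to 0%-Axitinib replicate 3, and the smooth muscle and brown fat sums did not set 3%-Axitinib replicates 1 and 3 apart from the others.

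Of 6 fibroblast markers, led by Col1a1 and summing to 18800.0, 9091 and 8862 CPM and 17764, 57684 and 20510.5 CPM, 2 were higher by the criterion, Col1a1 and Thy1, and 3%-Axitinib replicate 2 was the highest sample. Leaving out 3%-Axitinib replicate 1 gave 1, and leaving out 0%-Axitinib replicates 2 or 3 or 3%-Axitinib replicates 2 or 3 gave 0, as did total counts. All 6 endothelial markers were lower by the criterion, or 4 without 3%-Axitinib replicate 2, down to -2.37 for Cdh5, with sums led by Pecam1 of 531, 351 and 545 CPM and 104, 146 and 173 CPM. Of 5 tested leukocyte markers, led by Cd68, 2 were lower, Ptprc and Cd3e (1 by limma-voom and without 0%-Axitinib replicate 3, 3%-Axitinib replicate 1 or 3%-Axitinib replicate 3), and the list summed to 2094, 2703 and 1545 CPM and 1478, 1741 and 2426 CPM. Endothelial markers were low in all 3 treated samples, unlike the muscle genes. The part of these cell types in the levels of Cd36, Fabp4 and Slc25a4 was not tested.

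Promoter sequence, from 250 bases before to 50 after a gene start in RefSeq on GRCm38.p6, was matched by symbol for 8 of the 10 genes, without Cox6a2 and Ampd1. The letters CANNTG (an E-box), AAGGTCA (the core of a site for estrogen-related receptors), TATAAA and the MEF2 motif were searched on both strands. An E-box match was present in all 8, beside 72.3% of all 32851 promoters, and TATAAA in Cox8b alone, beside 13.6%. AAGGTCA and the MEF2 motif, held by 4.72% and 3.19% of promoters, had 0 matches in these windows. The sequences of Ckm, of Cox8b and of Slc25a4 are shown as a muscle-restricted gene, the gene with both kinds of match, and the broadly expressed gene. They are written 5′ to 3′ on the strand of the gene, with matches in capitals; a match describes letters and not a bound site.
Ckm (chr7:19410844-19411143, strand +): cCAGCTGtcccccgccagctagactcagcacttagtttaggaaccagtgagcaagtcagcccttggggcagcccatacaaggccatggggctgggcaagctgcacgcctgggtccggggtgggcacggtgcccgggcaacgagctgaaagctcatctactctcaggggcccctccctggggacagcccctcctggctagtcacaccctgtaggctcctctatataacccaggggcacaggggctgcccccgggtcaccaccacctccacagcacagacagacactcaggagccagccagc
Cox8b (chr7:140900397-140900696, strand -): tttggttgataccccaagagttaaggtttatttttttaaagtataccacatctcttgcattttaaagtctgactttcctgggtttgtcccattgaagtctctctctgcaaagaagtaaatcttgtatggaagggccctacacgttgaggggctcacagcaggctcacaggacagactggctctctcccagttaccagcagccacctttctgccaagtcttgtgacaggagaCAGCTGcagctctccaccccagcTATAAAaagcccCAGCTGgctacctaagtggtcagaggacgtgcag
Slc25a4 (chr8:46211013-46211312, strand -): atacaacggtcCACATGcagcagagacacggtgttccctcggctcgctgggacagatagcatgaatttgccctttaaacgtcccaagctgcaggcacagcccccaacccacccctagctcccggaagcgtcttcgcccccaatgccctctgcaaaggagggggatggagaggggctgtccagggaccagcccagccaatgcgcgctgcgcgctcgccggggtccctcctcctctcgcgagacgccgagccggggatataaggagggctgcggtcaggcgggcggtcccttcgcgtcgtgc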

How the data were processed

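Counts of reads per gene were used as deposited by the authors, whose processing notes name STAR 2.5.2b for alignment; the strand setting of the counting is not given in the sources used here. Murine tissues of 6 samples, 3 per group, were compared. The filter on low counts was filterByExpr with a minimum count of 10 and a minimum total of 15. Libraries were scaled by TMM, and the groups were compared by the quasi-likelihood test of edgeR 4.0.16 in R 4.3.3 without covariates. Alternatives were DESeq2 size factors, total counts, TMM without muscle genes, the Wald test of DESeq2 1.42.0, limma-voom (limma 3.58.1), no filter, at least 10 counts in every sample, the replicate number as a block, a prior count of 0.5 and each sample left out. RPKM used the joined length of all exons of a gene in GENCODE on GRCm38, which can exceed the length of its transcripts. Ratios within pairs had 0.5 added to counts and were compared by exact two-sided permutation. Genes named are the 10, their isoform partners, in each list those with the most extreme fold change, the highest level or the criterion met, and genes among the 5 most correlated with each of Ckm, Slc25a4 and Ppargc1a at a mean of at least 1 CPM. Overlapping genes were named for their overlap. The members and lists were chosen with earlier results of these data known. The group tests of edgeR, limma-voom and DESeq2 were also run on simulated counts with set fold changes. The steps for ratios, RPKM, reads per Ckm read and promoters were not.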

Additional observations from a re-analysis of the deposited data

How the results depend on the processing

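With 3 samples per group, libraries that differ in muscle content and low counts for Ckmt2, Ampd1, Cox8b and Ppargc1a, the values depend on single samples. Of the 7 genes that passed the filter, 3 met the criterion as higher by limma-voom, beside 9.62% of tested genes. By edgeR 6 did, beside 9.54%. Of the 7 that passed the filter, DESeq2's Wald test called 5 after adjustment, and edgeR called from 0 to 1 with a sample left out. With no filter and without 3%-Axitinib replicate 2 together, an alternative chosen after seeing the data, edgeR called 7 of the 10. In that fit it called 0.805% of all genes tested. Over all tested genes the adjusted calls numbered 1 by edgeR, 1961 by DESeq2's Wald test, 2 by limma-voom, 15 without a filter on low counts and from 0 to 1557 with a sample left out (1557 without 0%-Axitinib replicate 3); the cause was not tested. With the replicate block they numbered 2, and 6 of the 7 genes that passed the filter still met the criterion. Over the 15257 tested genes, 1249 were higher and 1354 lower by the criterion in that fit. After group means were taken off, same-numbered samples correlated at 0.182, -0.115, -0.174, and the other pairs at -0.221 to 0.212. Taking off means of 3 samples ties these values together, so they cannot decide whether the numbers pair samples. With the block Pdk4 (2.90), Ucp3 (2.92), Cd36 (-1.40), Atp2a1 (6.45), Tnnt2 (1.71), Col1a1 (1.57), Thy1 (0.87) and Cd3e (-2.77) missed the criterion. Scaling by total counts moved the median log2 fold change of all tested genes from -0.03 to -0.16, and the calls from 1456 higher and 1785 lower to 998 higher and 2437 lower. Without 0%-Axitinib replicate 3 the higher calls were 2212. Signs changed for genes near 0 or resting on 1 sample. By total counts the log2 fold changes were -0.038 for Ampd2, -0.054 for Ampd3, -0.044 for Fam136a, -0.062 for Hadhb, -0.014 for Etohi1. For B4galt1 the value was 0.00068 with TMM without muscle genes and 0.00032 by limma-voom. With a sample left out, values ran for Ppargc1a from -0.28 to 0.87, for Ppargc1b from -0.83 to 0.029, for Ampd2 from -0.084 to 0.33, for Ampd3 from -0.16 to 0.27, for Fabp5 from -0.048 to 0.71, for Cox4i2 from -0.042 to 2.13, for Mef2d from -0.47 to 0.018, for Tnnt1 from -0.080 to 4.72, for Cd68 from -0.18 to 0.69, for Fam136a from -0.063 to 0.16, for P2rx5 from -0.18 to 0.39, for Hadhb from -0.10 to 0.16, for Etohi1 from -0.15 to 0.25, for B4galt1 from -0.10 to 0.053. Why these signs changed was not tested. Of the other values over lists and genes, 1206 were fold changes that kept direction and call or counts within 1.5 times, 93 lost the criterion, 24 gained it and 77 counts moved by more than 1.5 times.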
